A study of Rattus norvegicus with 6 samples.

Results

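The comparison described here sets rats with an ischaemic hind limb injury that were treated with etanercept against rats without the injury, to find what in the sensory ganglia still differed from sham with the drug present. Its members are 4 of the 6 bulk RNA-seq libraries of the series, the CPIP+ETA pair and the Sham+Veh pair, and all 22864 genes of the deposited table. They were picked by their column names alone.

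All rats carry the genotype label WT. Neither strain nor age is given in the sources used here, and male rats are named only where the size of the ring is stated. In the CPIP groups the hind limb was tied off near the ankle with an O-ring for 3 h under pentobarbital, which is the chronic post-ischaemia pain (CPIP) model. Sham rats went through the anaesthesia without the ring. Etanercept (ETA) or its vehicle (Veh) was given into the spinal fluid every day from 2 days after the procedure, and the dorsal root ganglia of segments L4 to L6 on the injured side were collected at 7 days. The dose of etanercept is not given in the sources used here. Since every CPIP+ETA rat had both the injury and the drug, this comparison alone cannot tell the 2 apart; the CPIP+Veh pair, injured rats given vehicle, is therefore quoted beside it. Each group has 2 libraries, numbered 1 and 2, and whether they came from separate animals is not stated, so p-values measure only how these samples spread, and that spread may be technical.

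A dorsal root ganglion holds the cell bodies of the sensory neurons that serve the limb, together with satellite glia, Schwann cells, macrophages, vessels and a connective tissue capsule that is continuous with the meninges. Etanercept is a fusion of the extracellular part of a TNF receptor with an antibody constant region and binds TNF, a cytokine that drives inflammatory gene expression through NF-kB. Tying off a limb and releasing it injures nerve endings, vessels and muscle, and neurons whose axons are damaged switch on a set of transcription factors and neuropeptides in the ganglion.

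Library totals lay between 18284891 and 19981081 counts, with 17773 to 17921 genes detected. Within each group the libraries differed beyond sampling noise (chi-square of 5.91 to 9.83 per gene), and CPIP+ETA was the group at the top of that range. On the first principal component (25.5% of the variance) the CPIP+ETA pair lay furthest apart, at 25.6 and -18.1, with the sham pair at -29.5 and -4.74. On the second (20.7%) the sham pair lay furthest apart, at 6.64 and -29.9, with the CPIP+ETA pair at 18.4 and 14.9. Results that rest on 1 of these libraries are given below with and without it. The tissue label held: the summed level of nociceptor genes lay between 7842 and 8316 CPM (counts scaled to the library total after TMM) in the 6 libraries, and of the spinal cord markers Olig1, Olig2, Mog, Chat, Mnx1 and Neurod2, among others, 10 of 20 were too low to be tested. The other 10 were measured, and Snap25 and Sox10, which ganglion neurons and glia express too, made up most of the list's summed level of 1346 to 1456 CPM.

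Only 3 of 15531 genes passed in CPIP+ETA against sham, 0.0193% of those tested, and all 3 were higher (0.0193%) with none lower (0%) at an adjusted p under 0.05 in edgeR's quasi-likelihood test. The 3 genes were also high in the vehicle group. Without adjustment, 990 genes (6.37%) had p under 0.05, of which 410 (2.64%) lay higher and 580 (3.73%) lower. Beside that, injured rats on vehicle differed from sham by the same 3 called genes (0.0193%), and by 767 (4.94%) at unadjusted p under 0.05. The injured groups differed from each other by 0 called genes (0%), and by 800 (5.15%) at that p. The 3 comparisons share libraries, so they are set side by side only. The median log2 fold change of all tested genes was -0.00, and in 35.7% of genes the 4 libraries did not overlap, 17.2% with CPIP+ETA higher and 18.5% with it lower.

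**Figure D1:**
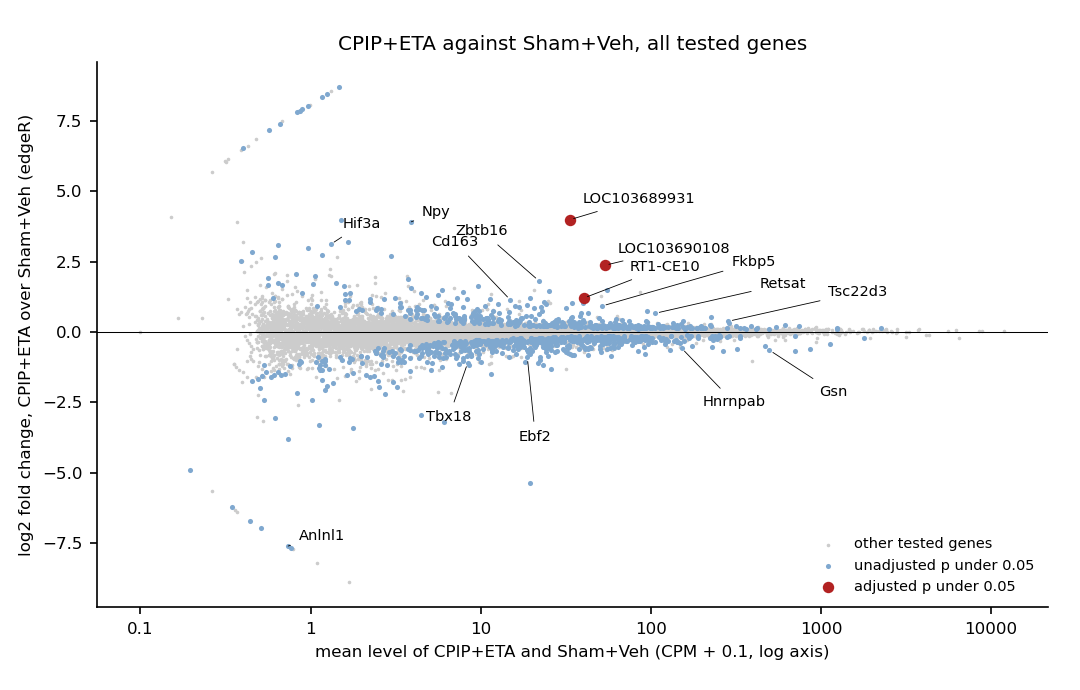
Log2 fold change of CPIP+ETA over Sham+Veh (edgeR) against mean level in CPM + 0.1 on a log axis, 1 point per tested gene, with genes at unadjusted p under 0.05 in blue and those at adjusted p under 0.05 in red. The 3 red points lie above 0, at log2 fold changes of 1.21 to 3.99; of the 32 genes beyond 5 in either direction, 31 have no count in a group, so that their fitted size depends on the fit's prior.

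The first of the 3, RT1-CE10 (gene identifier 414792), is a class I gene of the rat major histocompatibility complex, which presents peptides from inside the cell to T cells. It stood at 25.2 and 23.4 CPM in sham, 61.1 and 51.0 CPM in CPIP+ETA, and 65.4 and 65.8 CPM in CPIP+Veh. The injured libraries were all high and did not overlap with sham. The log2 fold change over sham was 1.21 (SE 0.097, edgeR adjusted p = 0.0404, n = 2 libraries per group). Class I genes of the rat are nearly identical in sequence and can exchange reads in counting, so the value of any single one is uncertain. Its promoter is printed because it carries a match to the kappa B motif, the element bound by the NF-kB factors that act downstream of TNF. The window runs from 250 bases before to 50 bases after the gene's start in RefSeq (assembly GRCr8, a later build than that of the counts), and the capitals mark the match, 194 to 185 bases before the start.

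RT1-CE10 promoter, chr20:3384930-3385229, minus strand: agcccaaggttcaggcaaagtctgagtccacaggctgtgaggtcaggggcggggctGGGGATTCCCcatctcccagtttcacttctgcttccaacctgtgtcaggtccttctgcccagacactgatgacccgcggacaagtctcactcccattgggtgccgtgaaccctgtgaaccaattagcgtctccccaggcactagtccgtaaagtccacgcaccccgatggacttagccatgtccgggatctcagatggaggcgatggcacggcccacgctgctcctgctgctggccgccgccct

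The motif was searched under its usual consensus on both strands. It was found in 9 of 22 class I list genes with a promoter in RefSeq, and in 7.51% of all 33469 promoters of the same length. Most of the 9 are RT1 genes, which are related to each other, so they are not independent cases. A match describes letters in this window and is not evidence of binding.

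LOC103690108, a gene with a provisional symbol, had the smallest p of the comparison. It stood at 17.9 and 16.7 CPM in sham and at 93.1 and 86.5 CPM in CPIP+ETA, with 92.8 and 93.4 CPM in CPIP+Veh. All 4 injured libraries lay close together and far above sham. The log2 fold change over sham was 2.37 (SE 0.069, edgeR adjusted p = 0.000149), and the call held under all the alternatives run. LOC103689931, also provisional, stood at 2.17 and 5.69 CPM in sham, 56.2 and 68.9 CPM in CPIP+ETA, and 59.3 and 60.3 CPM in CPIP+Veh. Sham was low in both libraries, though unequal. The log2 fold change was 3.99 (SE 0.31, edgeR adjusted p = 0.0404). Leaving out Sham+Veh 1 gave 3.46, and leaving out Sham+Veh 2 gave 4.85.

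The calls of LOC103689931 and RT1-CE10 were lost in several fits with fewer libraries. LOC103689931 lost its call without CPIP+ETA 1 (edgeR adjusted p = 0.129), CPIP+ETA 2 (0.115), CPIP+Veh 1 (0.163) or CPIP+Veh 2 (0.164). RT1-CE10 lost it without Sham+Veh 1 (0.183), Sham+Veh 2 (0.374), CPIP+ETA 1 (0.0706), CPIP+Veh 1 (0.163) or CPIP+Veh 2 (0.164). The vehicle libraries are not in the comparison, and without either of them the log2 fold changes were 3.997 and 3.992 for LOC103689931 and 1.21 and 1.20 for RT1-CE10. Both genes also missed the threshold with only the 4 libraries (edgeR adjusted p = 0.145), with the crossed replicate block (0.183) and in limma-voom (0.0685).

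Another tool drew the line elsewhere. DESeq2 called 45 of 17184 genes (0.262%), 21 higher (0.122%) and 24 lower (0.14%), and limma-voom called LOC103690108 alone (0.00644%). Of the 45 genes, 44 had an unadjusted edgeR p under 0.05 and 44 did not overlap between the groups. The exception to both was LOC100360679, which was counted only in CPIP+ETA 1, at 32.6 CPM, and was listed at 0 in the 5 other libraries. Among the genes described below, DESeq2 called Hnrnpab, Gsn, Retsat, Fkbp5, Tsc22d3, Clec10a, Cyp26b1, Cd163 and others. It did not call Hif3a, Gnb3, Capg, Rin3 or Pamr1.

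Below the 3 called genes, those with the lowest p did not pass in edgeR (adjusted p 0.17 or more), and they are given by their levels. They divide by where the vehicle group stood. Some stood on the same side of sham in both injured groups. Retsat, a retinol saturase of vitamin A metabolism, stood at 88.9 and 75.1 CPM in sham, 130.4 and 129.7 CPM in CPIP+ETA, and 129.6 and 125.1 CPM in CPIP+Veh. Gsn, which severs and caps actin filaments, stood at 605 and 609 CPM in sham, 355 and 420.1 CPM in CPIP+ETA, and 345 and 375 CPM in CPIP+Veh. In both genes the 4 injured libraries were together on one side of sham, and the log2 fold changes over sham were 0.67 (SE 0.083, edgeR adjusted p = 0.256) and -0.65 (SE 0.086, adjusted p = 0.262). Capns1, the small subunit of calpain proteases, had -0.57 with the drug and -0.57 with vehicle, the actin-capping Capg had 0.37 and 0.43, and Gnb3, a G protein beta subunit at under 2 CPM, had 2.98 and 2.93. Hnrnpab, an RNA-binding protein, stood at 184.0 and 178 CPM in sham, 144 and 131 CPM in CPIP+Veh, and 124 and 120 CPM in CPIP+ETA (log2 fold change with the drug -0.57, adjusted p = 0.17). It was below sham in both injured groups and lower with etanercept than with vehicle, without overlap.

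Other genes stood away from sham with etanercept while the vehicle group stayed at the sham level or lay in between. Fkbp5, a chaperone partner that lowers the hormone affinity of the glucocorticoid receptor and is itself induced by it, stood at 34.2 and 36.9 CPM in sham, 35.9 and 37.3 CPM in CPIP+Veh, and 59.0 and 76.0 CPM in CPIP+ETA. Clec10a, a galactose-binding lectin of macrophages and dendritic cells, stood at 17.5 and 14.3 CPM in sham, 16.3 and 17.4 CPM in CPIP+Veh, and 27.9 and 30.4 CPM in CPIP+ETA. Cyp26b1, which breaks down retinoic acid, stood at 12.7 and 12.2 CPM in sham, 9.82 and 11.2 CPM in CPIP+Veh, and 6.398 and 6.81 CPM in CPIP+ETA. In each, the etanercept pair was apart from the 4 other libraries. Rin3, an exchange factor for Rab5, had a log2 fold change over sham of 0.53 (vehicle 0.12), and Kirrel, an adhesion protein of the nephrin family, had -0.36 (vehicle -0.10). The transcription factors Ebf2 and Tbx18 had -0.90 and -1.10 (vehicle -0.35 and -0.40), the hedgehog receptor Ptch1 -0.82 (vehicle -0.39), and Pamr1 -0.80 (vehicle -0.43). From Ebf2 to Pamr1 both vehicle libraries lay between sham and etanercept without overlap. In Pamr1 the vehicle pair, at 8.10 and 8.17 CPM, was nearer to etanercept than to sham. Anlnl1 had 47 counts in sham, 62 in CPIP+Veh and 0 in CPIP+ETA, which makes it at least 16.3-fold lower when the empty group is set to 3 counts.

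**Figure D2:**
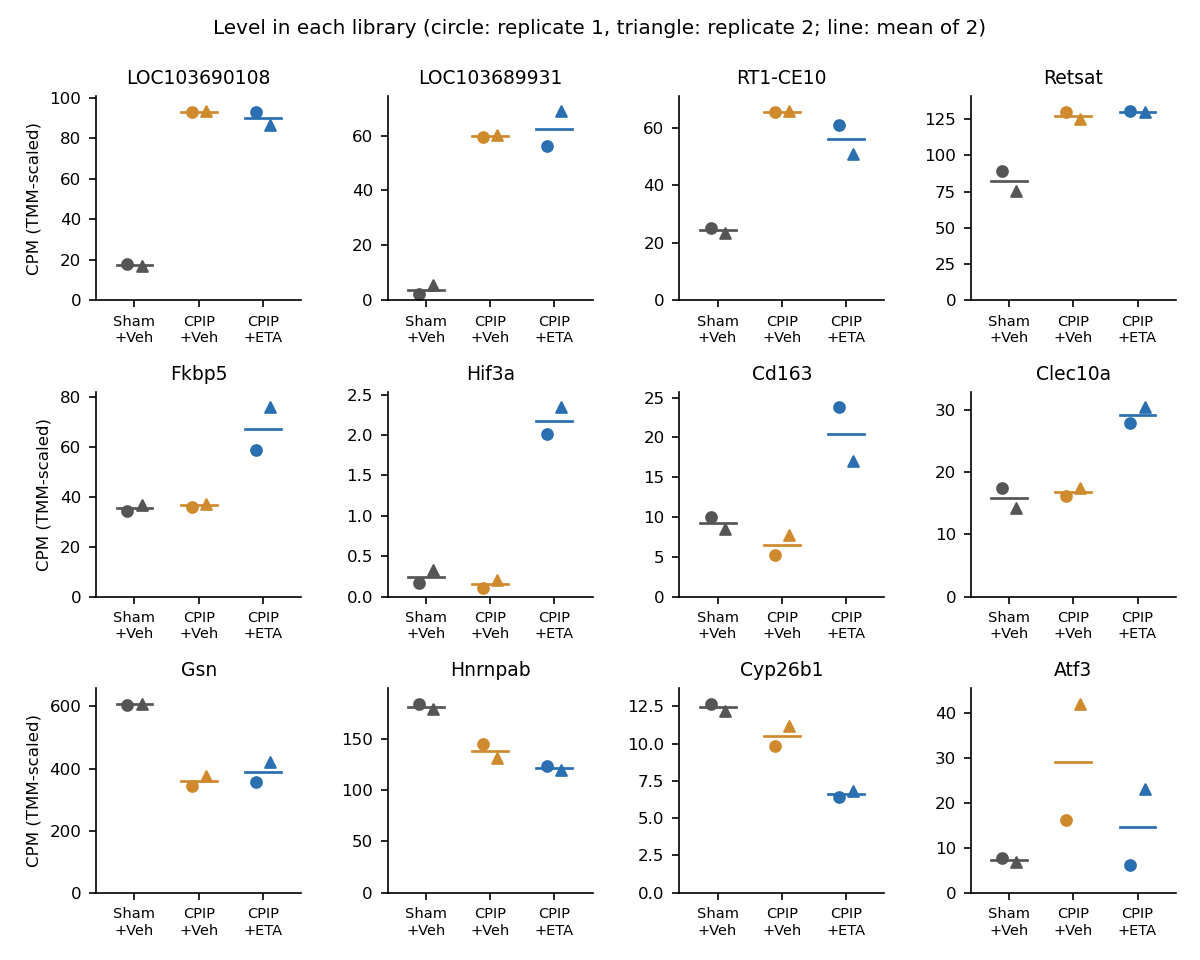
Level of 12 genes in CPM (linear axis from 0) in each of the 6 libraries, with the group mean as a line (n = 2). LOC103690108, LOC103689931, RT1-CE10, Retsat and Gsn have both injured groups away from sham, while Fkbp5, Hif3a, Cd163 and Clec10a are high in the CPIP+ETA pair alone, and Atf3 overlaps with sham in CPIP+ETA 1 at 6.20 CPM.

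Glucocorticoid-induced genes lay on the higher side with etanercept. These are genes whose transcription the glucocorticoid receptor raises when corticosterone or a drug such as dexamethasone binds it, and several are used as readouts of that exposure. Like every list here, this one was chosen with earlier results of these data known, so its counts describe these libraries and are no test. Of 27 measured members 23 lay above sham and the median log2 fold change was 0.37, against -0.00 over all genes. Without adjustment 14 were higher and 2 lower at p under 0.05 (2.64% and 3.73% of all genes). In 16 the libraries did not overlap on the higher side and in 2 on the lower (17.2% and 18.5% of all genes). None passed over all genes in edgeR, while DESeq2 called the members Fkbp5, Tsc22d3, Zbtb16, Klf15 and Per1, all higher. In the vehicle group the median over sham was 0.02. The median was 0.22 without CPIP+ETA 2, with 18 members above sham and 10 of them at p under 0.05 higher, and 0.48 without CPIP+ETA 1, with 23 above sham.

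The members with the lowest p were Fkbp5, Tsc22d3 and Hif3a. Fkbp5 had a log2 fold change over sham of 0.92 (SE 0.12, edgeR adjusted p = 0.262). Tsc22d3, the glucocorticoid-induced leucine zipper that damps inflammatory transcription, stood at 250.3 and 245 CPM in sham, 250.4 and 261 CPM in CPIP+Veh, and 309 and 336 CPM in CPIP+ETA (log2 fold change over sham 0.38, SE 0.058, adjusted p = 0.315). Hif3a, a hypoxia-inducible factor family member that the same receptor induces, was counted 9 times in sham, 6 times in CPIP+Veh and 83 times in CPIP+ETA (log2 fold change over sham 3.12, SE 0.48, adjusted p = 0.323). Sham and vehicle levels were close in Fkbp5 and Tsc22d3 and low in Hif3a, and each etanercept library was above all 4 others.

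The transcription factors Klf15 and Zbtb16, which the receptor induces in many tissues, showed the same order. Klf15 stood at 17.4 and 15.1 CPM in sham, 14.9 and 18.1 CPM in CPIP+Veh, and 27.9 and 36.3 CPM in CPIP+ETA (log2 fold change over sham 0.98). Zbtb16 stood at 8.50 and 10.8 CPM in sham, 11.1 and 9.94 CPM in CPIP+Veh, and 21.4 and 46.8 CPM in CPIP+ETA (1.82, or 1.16 without CPIP+ETA 2). CPIP+ETA 2 had the higher level of the pair in each. Other members, chosen after their values were seen, were Map3k6 (1.25), Cebpd (0.97), Ddit4 (0.76), Nfkbia (0.75), Sgk1 (0.58), Errfi1 (0.53) and Klf9 (0.37), all with non-overlapping libraries. Nr3c1, the receptor itself, had -0.25, Gjb6 -1.37 and Pdk4 -0.17, and Tat, a liver enzyme, was under 1 CPM in 5 of the 6 libraries. Per1, a clock gene that is also in the glucocorticoid list, stood at 25.5 and 27.3 CPM in sham, 26.5 and 50.2 CPM in CPIP+Veh, and 54.6 and 53.0 CPM in CPIP+ETA. Per1 was nearly as high in CPIP+Veh 2 as with the drug. Dbp had a log2 fold change over sham of -0.76 and Nfil3 0.93, and the median of the 21 measured clock genes was -0.05. The hour at which the ganglia were taken is not given in the sources used here, and its part in these values was not tested.

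A search for the glucocorticoid receptor's palindrome GAACANNNTGTTC on both strands found it in 0 of 24 list genes with a promoter in RefSeq, and in 0.0508% of all promoters. No match says only that these letters are absent from the 300 bases searched.

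Scavenger macrophage genes were mixed. The list, of genes that mark macrophages lying along vessels and clearing haemoglobin and other cargo, had 11 of 19 members above sham and a median of 0.05. Without adjustment 5 were higher and 1 lower at p under 0.05 (2.64% and 3.73% of all genes). The median was 0.18 without Sham+Veh 1, 0.16 without CPIP+ETA 1, 0.0033 without Sham+Veh 2 and 0.0092 without CPIP+ETA 2. The members with the lowest p were Clec10a (log2 fold change over sham 0.87, SE 0.12, edgeR adjusted p = 0.27), Cd163 and Ms4a6bl. Cd163, the receptor that takes up haemoglobin bound to haptoglobin and another glucocorticoid target, stood at 10.02 and 8.54 CPM in sham, 5.21 and 7.77 CPM in CPIP+Veh, and 23.8 and 17.0 CPM in CPIP+ETA (1.14, SE 0.23, adjusted p = 0.493). Ms4a6bl stood at 5.41 and 5.42 CPM in sham, 5.01 and 5.09 CPM in CPIP+Veh, and 8.36 and 8.39 CPM in CPIP+ETA (0.63). Both were above sham in each etanercept library and below it with vehicle. The mannose receptor Mrc1 (0.67) and the hyaluronan receptor Lyve1 (0.36) lay higher as well, and the growth factor Igf1 lay lower (-0.70). Lyve1 and Igf1 were picked with their values known.

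The wider macrophage list had 19 of 28 members above sham and a median of 0.14 (0.083 without CPIP+ETA 1). At unadjusted p under 0.05, 4 were higher and 0 lower (2.64% and 3.73% of all genes). Its lowest p belonged to Cd163, to the lysosomal protease Ctss (0.30, SE 0.072), and to Mrc1. The summed level of the list was 874 and 824 CPM in sham, 908 and 956 CPM in CPIP+ETA, and 1024 and 1070 CPM in CPIP+Veh. In this sum the etanercept pair lay between sham and vehicle, whereas the list's median over sham was 0.14 with etanercept and 0.093 with vehicle. In bulk tissue fewer cells of a type and less RNA per cell cannot be told apart, here and in every marker list below.

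Red blood cell transcripts lay higher beside these genes. Of 11 measured members 10 lay above sham, 8 without overlap (17.2% of all genes), and the median was 1.09 (vehicle -0.05), or 0.65 without Sham+Veh 2. Only 2 were at unadjusted p under 0.05, both higher (2.64% of all genes). Hbb, a beta globin, stood at 23.7 and 34.3 CPM in sham, 10.5 and 29.1 CPM in CPIP+Veh, and 99.4 and 62.4 CPM in CPIP+ETA (log2 fold change over sham 1.48, SE 0.44, edgeR adjusted p = 0.636). The alpha globins Hba2 and Hba1 had 1.46 and 1.42. The list's summed level was 106 and 90.7 CPM in sham, 323 and 199 CPM in CPIP+ETA, and 32.5 and 131 CPM in CPIP+Veh. Whether the rats were perfused is not given in the sources used here, and the part of blood in the level of Cd163 was not tested.

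**Figure D3:**
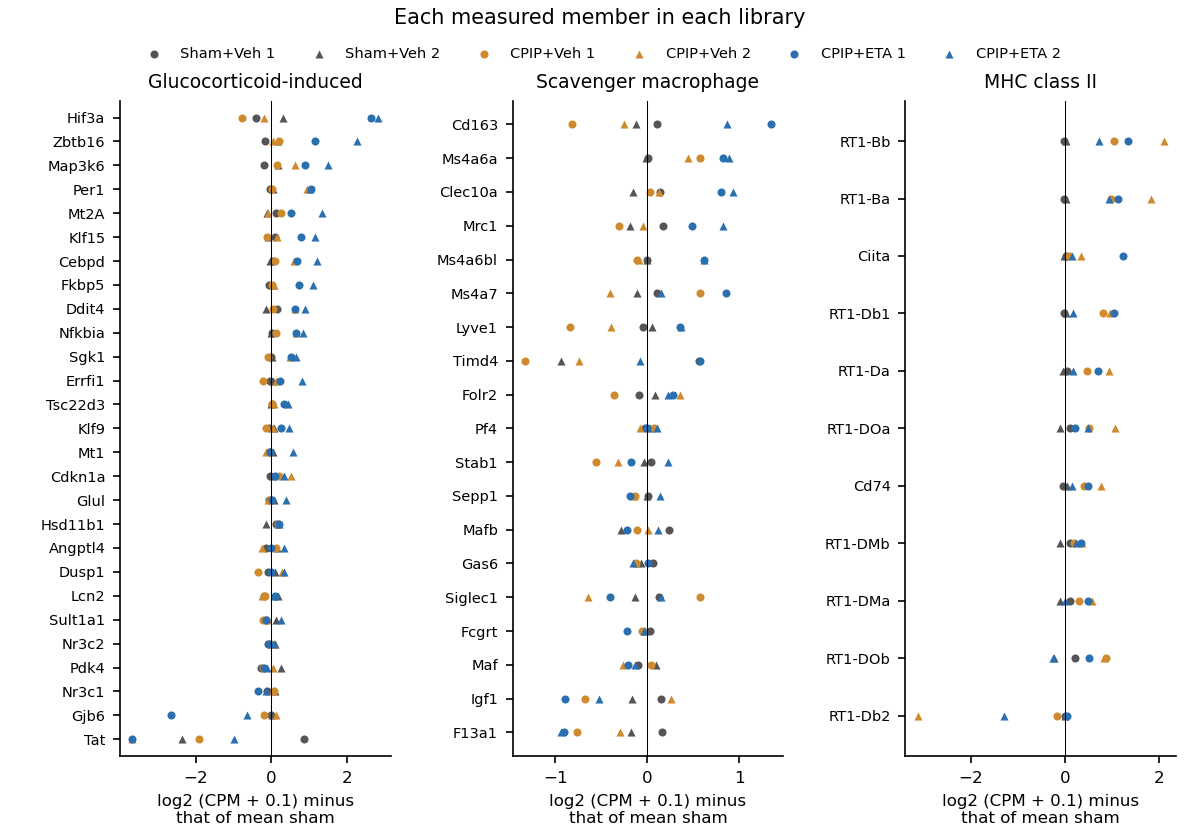
Measured members of the glucocorticoid-induced, scavenger macrophage and MHC class II lists, 1 row per gene, ordered by the fold change over sham. Each point is a library, as log2(CPM + 0.1) minus that of the sham mean, and the blue CPIP+ETA points lie right of the other 4 libraries in the upper rows of the first panel, whereas in the class II rows of RT1-Bb and RT1-Ba the CPIP+Veh 2 point lies furthest right.

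MHC class II genes, which encode the molecules that show peptides from outside the cell to helper T cells, lay above sham in both injured groups. Of 11 measured members 10 lay above sham with etanercept, 8 without overlap, and 4 were higher and 0 lower at unadjusted p under 0.05 (over all genes 17.2%, 2.64% and 3.73%). The median was 0.39 with etanercept and 0.71 with vehicle, each against the same sham libraries, and it was 0.17 without CPIP+ETA 1, with 1 member at p under 0.05. RT1-Ba, an alpha chain, stood at 21.98 and 22.9 CPM in sham, 49.1 and 43.0 CPM in CPIP+ETA, and 44.5 and 79.3 CPM in CPIP+Veh (log2 fold change with the drug 1.04, SE 0.26, edgeR adjusted p = 0.6). RT1-Bb, the beta chain that pairs with it, stood at 14.9 and 15.5 CPM in sham, 38.5 and 25.2 CPM in CPIP+ETA, and 31.6 and 65.2 CPM in CPIP+Veh (1.06, SE 0.36, adjusted p = 0.727). No injured library reached down to sham in either gene. RT1-Db1, another beta chain, stood at 68.1 CPM in CPIP+ETA 1 and 37.1 CPM in CPIP+ETA 2, against 32.5 and 33.9 CPM in sham. Cd74, the invariant chain that escorts class II molecules, had 0.32, and Ciita, the regulator that switches the class II genes on, had 7.41 CPM in CPIP+ETA 1 and 3.43 CPM in CPIP+ETA 2 against 3.14 and 3.06 CPM in sham.

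The class II promoters below are shown because both genes lay higher in every injured library and share the Y box, the element CTGATTGG that the factor NF-Y binds. Both strands were searched and the capitals mark the match, 46 to 39 bases before the start in RT1-Ba and 64 to 57 bases before it in RT1-Bb (RefSeq, GRCr8). It was found in 7 of 10 class II list genes with a promoter there and in 3.5% of all promoters. The 7 are all RT1 genes and likewise are not independent cases.

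RT1-Ba promoter, chr20:4576807-4577106, plus strand: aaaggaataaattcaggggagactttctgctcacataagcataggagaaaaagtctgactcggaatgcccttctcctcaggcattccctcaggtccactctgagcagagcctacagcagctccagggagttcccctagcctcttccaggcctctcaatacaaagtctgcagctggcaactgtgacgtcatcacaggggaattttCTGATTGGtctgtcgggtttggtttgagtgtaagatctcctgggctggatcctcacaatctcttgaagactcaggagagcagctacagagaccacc

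RT1-Bb promoter, chr20:4604069-4604368, minus strand: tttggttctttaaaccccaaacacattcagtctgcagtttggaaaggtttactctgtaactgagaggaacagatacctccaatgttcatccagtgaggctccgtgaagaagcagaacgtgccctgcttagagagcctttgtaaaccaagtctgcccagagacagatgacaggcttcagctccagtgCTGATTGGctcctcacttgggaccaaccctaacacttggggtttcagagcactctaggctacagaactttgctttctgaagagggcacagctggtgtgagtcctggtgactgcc

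MHC class I genes had a median at the sham level, while the members with a low p were higher. Of 24 measured members 12 lay above sham and the median was -0.00. At unadjusted p under 0.05, 4 were higher and 0 lower (2.64% and 3.73% of all genes). The lowest p after RT1-CE10 belonged to RT1-CE3 (0.48, SE 0.094, edgeR adjusted p = 0.486) and RT1-CE4 (0.36, SE 0.14). The class I light chain B2m had -0.04 and the peptide transporter Tap1 0.01. Interferon response genes, which respond to the cytokines that raise class I, had 7 of 31 members above sham and a median of -0.15, with 0 at unadjusted p under 0.05 and 9 below sham without overlap (18.5% of all genes). In the vehicle group their median over sham was 0.29. The median with etanercept was -0.042 with 12 above sham without CPIP+ETA 1, and -0.048 with 13 above without Sham+Veh 1.

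Fibroblast and extracellular matrix genes were on the lower side. The list covers collagens, small proteoglycans and other proteins that fibroblasts of the capsule, nerve sheath and vessel wall secrete. Of 26 measured members 25 lay below sham, 20 without overlap (18.5% of all genes). The median log2 fold change was -0.42 (vehicle -0.25, all genes -0.00). Without adjustment 13 were lower and 0 higher at p under 0.05 (3.73% and 2.64% of all genes), and none passed over all genes in edgeR. The members with the lowest p were Gsn, the basement membrane collagen Col15a1 and the fibrillar collagen Col3a1. Col15a1 stood at 32.8 and 40.6 CPM in sham, 23.8 and 23.9 CPM in CPIP+ETA, and 21.3 and 23.0 CPM in CPIP+Veh (-0.62, SE 0.11, adjusted p = 0.446). Col3a1 stood at 1008 and 1059 CPM in sham, 627 and 745 CPM in CPIP+ETA, and 711 and 929 CPM in CPIP+Veh (-0.59, SE 0.13, adjusted p = 0.531). Each was below sham in all 4 injured libraries.

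The size of this difference rested on CPIP+ETA 1. The list's summed level was 8049 and 8644 CPM in sham, 6761 and 7528 CPM in CPIP+Veh, 5758 CPM in CPIP+ETA 1 and 6959 CPM in CPIP+ETA 2. Without CPIP+ETA 1 the median was -0.16 with 5 members lower at p under 0.05, and without CPIP+ETA 2 it was -0.62 with 21. Leaving out Sham+Veh 1 gave 8 such members and leaving out Sham+Veh 2 gave 6. Lum and Dcn, small proteoglycans chosen after their values were seen, stood at 114 and 675 CPM in CPIP+ETA 1 and at 174 and 955 CPM in CPIP+ETA 2. In sham Lum stood at 199 and 208 CPM and Dcn at 988 and 1102 CPM.

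Genes known from the leptomeninges, the thin membranes that run onto the nerve roots, were lower with the matrix genes. This list was written after values were seen, so its counts describe these libraries and are no test. Of 27 measured members 26 lay below sham and 24 did so without overlap (18.5% of all genes). The median was -0.88, and in the vehicle group the median was -0.20. Igf2, a growth factor of these membranes, stood at 31.9 and 41.6 CPM in sham, 28.3 and 42.8 CPM in CPIP+Veh, and 8.92 and 20.7 CPM in CPIP+ETA. Aldh1a2, which makes retinoic acid, stood at 12.2 and 14.7 CPM in sham, 12.0 and 15.4 CPM in CPIP+Veh, and 3.63 and 9.37 CPM in CPIP+ETA. Ptgds, the prostaglandin D2 synthase of the meninges, stood at 420.4 and 637 CPM in sham, 372 and 467 CPM in CPIP+Veh, 126 CPM in CPIP+ETA 1 and 393 CPM in CPIP+ETA 2. CPIP+ETA 1 was the lowest of the 6 libraries in each of these, and it lay below CPIP+ETA 2 in 24 of the 27.

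The transporters Slc6a13, Slc22a6 and Slc22a8 had log2 fold changes over sham of -1.08, -1.74 and -1.51, the connexins Gjb6 and Gjb2 -1.37 and -0.89, and the transcription factors Tbx18, Osr1, Foxd1 and Foxc2 -1.10, -1.38, -0.94 and -0.88. Tbx18 and Aldh1a1 are among the genes DESeq2 called, and Gjb6 is in the glucocorticoid list. The summed level of the 27 genes was 1082 and 1369 CPM in sham, 1002 and 1140.0 CPM in CPIP+Veh, 590 CPM in CPIP+ETA 1 and 981 CPM in CPIP+ETA 2. Without CPIP+ETA 1 the median was -0.47 and without CPIP+ETA 2 it was -1.27, with 26 below sham either way. How much of the membranes came with each ganglion is not given in the sources used here, and its part in the matrix, retinoid and hedgehog values was not tested.

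Pericyte and smooth muscle genes were also lower. Of 20 measured members 18 lay below sham, 11 without overlap, and the median was -0.31 with etanercept and -0.24 with vehicle, with 6 lower and 1 higher at unadjusted p under 0.05. Over all genes 18.5% lay lower without overlap, and 3.73% were lower and 2.64% higher at that p. Acta2, smooth muscle actin, stood at 30.5 and 27.5 CPM in sham, 17.2 and 21.8 CPM in CPIP+ETA, and 12.9 and 16.5 CPM in CPIP+Veh (log2 fold change with the drug -0.57, SE 0.16, edgeR adjusted p = 0.629). Myl9, a myosin light chain, had -0.67 (SE 0.20) and Cspg4, the NG2 proteoglycan of pericytes, -0.36 (SE 0.11). Myh11, smooth muscle myosin, had -0.31 with the drug and -0.65 with vehicle. All of these lay below sham in every injured library. The count at p under 0.05 was 2 without Sham+Veh 1 and 1 without CPIP+ETA 1.

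**Figure D4:**
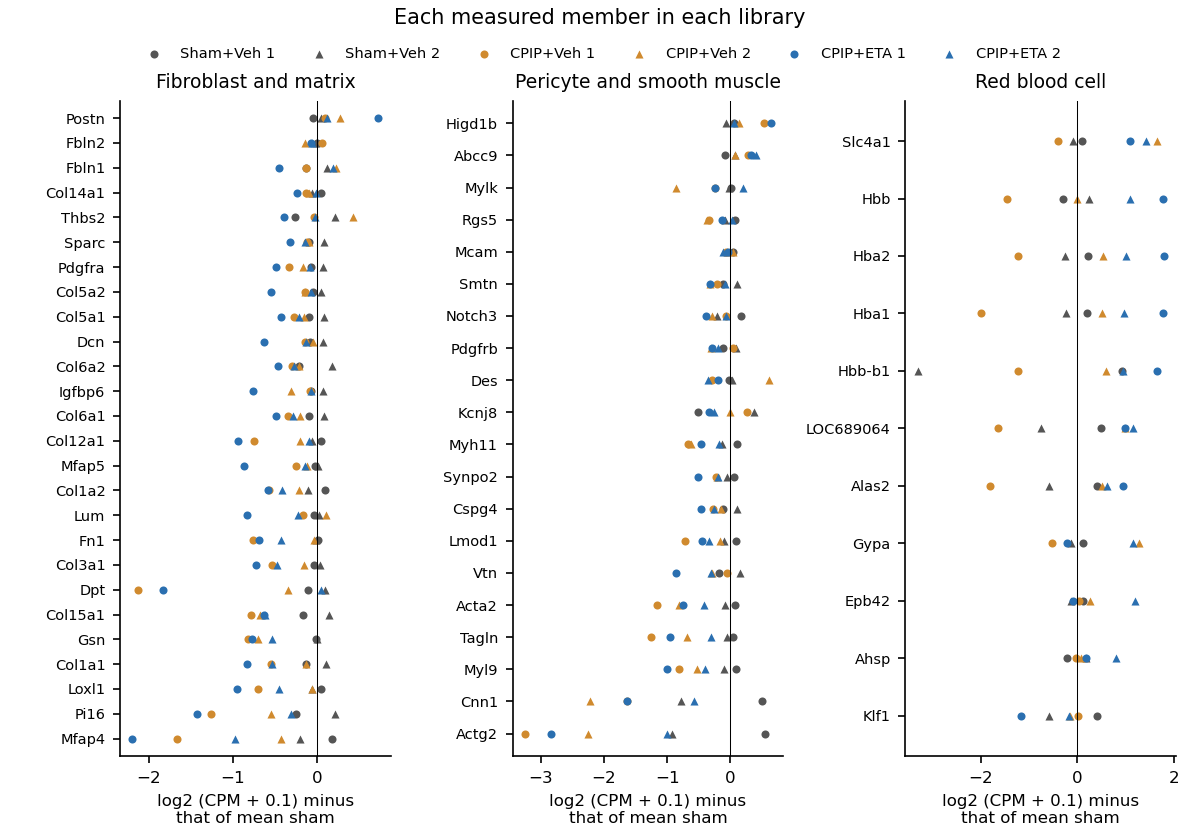
Measured members of the fibroblast and matrix, pericyte and smooth muscle, and red blood cell lists, 1 row per gene, ordered by the fold change over sham, each point a library as log2(CPM + 0.1) minus that of the sham mean. Blue circles (CPIP+ETA 1) lie furthest left in most rows of the first panel, and the blue points of the globin genes lie right of sham in the third.

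Endothelial genes leaned lower with 6 of 19 above sham and a median of -0.10. At unadjusted p under 0.05, 4 were lower and 0 higher (3.73% and 2.64% of all genes). Eng, a co-receptor for TGF-beta on endothelium, stood at 34.6 and 40.3 CPM in sham, 22.3 and 26.03 CPM in CPIP+ETA, and 24.9 and 29.2 CPM in CPIP+Veh (-0.63, SE 0.13, edgeR adjusted p = 0.486). The VEGF receptor Kdr had -0.41 (SE 0.093) and the organic anion transporter Slco1a2 -0.47 (SE 0.17). Without CPIP+ETA 1 the list's median was 0.0072 and 11 members lay above sham, and without Sham+Veh 2 it was -0.015. Adipocyte genes had a median of -0.39 over 10 measured members (vehicle -0.44), which was -0.18 without Sham+Veh 1, -0.75 without CPIP+ETA 2, -0.22 with only the 4 libraries and -0.14 with 1 CPM in 2 libraries. The adipokine Adipoq was counted 34 times in sham, 0 times in CPIP+Veh and 4 times in CPIP+ETA. Mast cell genes had 7 of 8 measured members below sham and a median of -0.62 (vehicle -0.10). It was -0.40 with 5 below sham without Sham+Veh 2, -0.31 with only the 4 libraries and -0.16 with 1 CPM in 2 libraries. Their summed level, mostly Kit and Slc18a2, which other cells express too, was 118 and 119 CPM in sham and 117 and 105 CPM in CPIP+ETA. Cpa3, their carboxypeptidase, had 72 counts in sham and 21 in CPIP+ETA, and Mcpt2, Mcpt4 and Mcpt10 were at 0 in all libraries. Neutrophil genes lay above sham in 7 of 7 measured members, all of them at low levels, with a summed level of 9.04 and 11.3 CPM in sham, 18.03 and 17.5 CPM in CPIP+ETA, and 8.10 and 17.9 CPM in CPIP+Veh. Their median of 1.19 was 0.61 without Sham+Veh 1, with 6 of 7 above sham, and 0.23 without CPIP+ETA 2, with 5 of 7. Lymphocyte genes were mostly too low to test (8 of 23 measured), with 0 at p under 0.05.

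Nerve injury genes, switched on by damaged sensory neurons, were near sham with etanercept. Of 39 measured members 27 lay above sham with a median of 0.11. At unadjusted p under 0.05, 2 were higher and 0 lower (2.64% and 3.73% of all genes). In the vehicle group the median over sham was 0.35. The early injury factor Atf3 stood at 7.69 and 6.90 CPM in sham, 6.20 and 23.1 CPM in CPIP+ETA, and 16.3 and 42.1 CPM in CPIP+Veh. CPIP+ETA 1 was below both sham libraries and CPIP+ETA 2 above them, so the groups overlapped (log2 fold change over sham 0.998, SE 0.67, edgeR adjusted p = 0.865). The neuropeptide Npy stood at 0.325 and 0.602 CPM in sham, 1.41 and 12.9 CPM in CPIP+ETA, and 6.08 and 35.8 CPM in CPIP+Veh (3.92, SE 1.5, adjusted p = 0.767). Vip, a vasodilator peptide, had 1 count in sham, 65 and 129 in the vehicle pair, 1 in CPIP+ETA 1 and 18 in CPIP+ETA 2. From sham to etanercept that is a ratio of 18.3 with a 95% counting interval of 2.9 to 759. In all 3 genes CPIP+ETA 2 was far above CPIP+ETA 1.

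The other member with p under 0.05, the chemokine Ccl2 that draws in monocytes, stood at 9.75 and 12.5 CPM in sham, 14.4 and 21.9 CPM in CPIP+ETA, and 16.1 and 22.2 CPM in CPIP+Veh (0.71, SE 0.25, edgeR adjusted p = 0.75). Sox11, a factor of axon regrowth, had 0.43 with etanercept (vehicle 0.87), and the antimicrobial lectin Reg3b 0.72 (vehicle 1.92). The neuropeptide Gal and the growth cone protein Gap43 had -0.06 and 0.01 (vehicle 1.20 and 0.35), and both overlapped with sham. Without CPIP+ETA 2 the list's median was -0.01 with 18 members above sham, and without CPIP+ETA 1 it was 0.18 with 12 members higher at p under 0.05. Whether etanercept brought these genes back cannot be read from this comparison, and the drug and vehicle values are set side by side because they share the sham libraries.

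TNF itself was too low to test, at 12 counts in sham, 13 in CPIP+ETA and 13 in CPIP+Veh. Its receptor Tnfrsf1a, found on most cells, stood at 51.6 and 50.7 CPM in sham and 47.2 and 47.5 CPM in CPIP+ETA (log2 fold change -0.11, SE 0.059, edgeR adjusted p = 0.83). Tnfrsf1b, the receptor form from which etanercept was derived, stood at 3.30 and 3.56 CPM in sham and 4.23 and 5.50 CPM in CPIP+ETA (0.50, SE 0.24, adjusted p = 0.813). Of 30 measured genes of TNF receptor and NF-kB signalling 15 lay above sham, the median was -0.00, and 1 was at p under 0.05 (6.37% of all genes). That gene was Nfkbia, the inhibitor of NF-kB, at 17.2 and 17.1 CPM in sham, 27.0 and 30.5 CPM in CPIP+ETA, and 18.6 and 26.8 CPM in CPIP+Veh (0.75, adjusted p = 0.531). It is also a glucocorticoid target and a member of that list.

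Cytokine and chemokine genes divided, with 3 higher and 5 lower at unadjusted p under 0.05 among 28 measured and a median of 0.07. Over all genes 2.64% were higher and 3.73% lower at that p. Among the members with the lowest p were the chemokine Cxcl12 (-0.62, SE 0.17) and the growth factor Tgfb3 (-0.29, SE 0.092). Ccl11, the eosinophil attractant, stood at 9.22 CPM in CPIP+ETA 1 and at 0.817 CPM in CPIP+ETA 2, against 0.758 and 0.766 CPM in sham, so it rested on 1 library. Complement genes had a median of -0.03 over 21 members, with 1 higher and 2 lower at unadjusted p under 0.05. The lower ones were Cd55 (-0.24, SE 0.06) and the protease Cfd (-0.56, SE 0.17), and the higher one, the central component C3, stood at 12.9 and 10.5 CPM in sham, 35.9 and 18.1 CPM in CPIP+ETA, and 21.5 and 13.2 CPM in CPIP+Veh (1.21, SE 0.36, or 0.64 without CPIP+ETA 1).

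**Figure D5:**
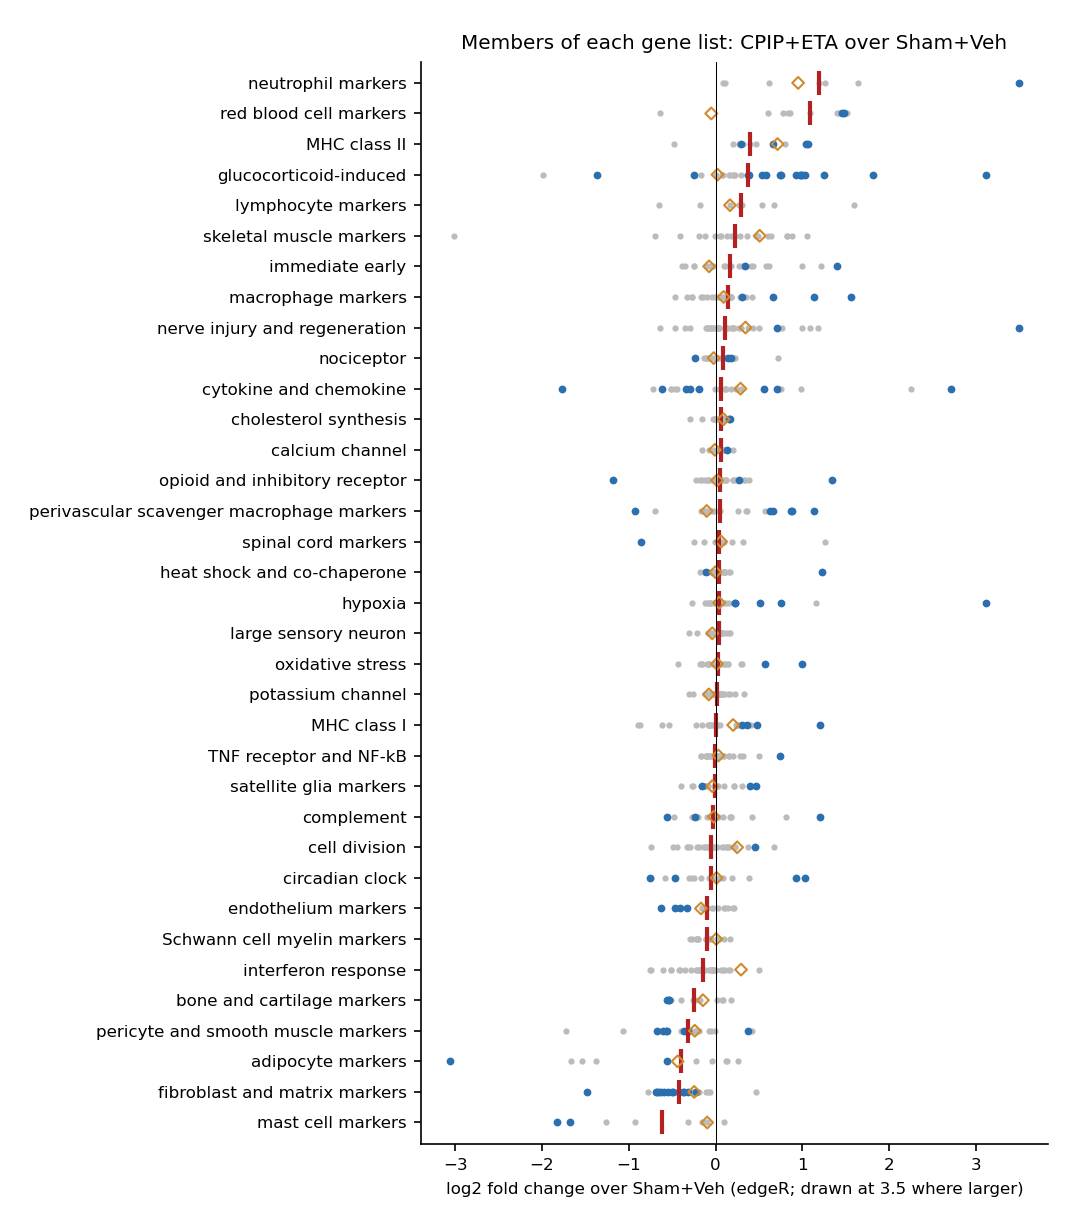
Log2 fold change of CPIP+ETA over Sham+Veh for the measured members of 35 gene lists (grey points, blue at unadjusted p under 0.05), with the list's median in red and, as an open diamond, the median of CPIP+Veh over the same sham libraries. Red blood cell and glucocorticoid-induced genes have the red mark away from a diamond near 0 (1.09 and 0.37 against -0.05 and 0.02), and the matrix genes have both below 0.

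Genes of neuronal identity and excitability had list medians close to sham. Nociceptor genes had 18 of 27 members above sham and a median of 0.09. At unadjusted p under 0.05, 2 were higher and 1 lower (2.64% and 3.73% of all genes). They were Prph, the intermediate filament of small neurons (0.15, SE 0.043), the heat-gated channel Trpv1, at 129 and 127 CPM in sham and 151 and 138 CPM in CPIP+ETA (0.18, SE 0.065), and Cd55, a complement regulator (-0.24, SE 0.06). The sodium channels Scn10a and Scn9a had -0.01 and 0.06 and the peptides Calca and Tac1 -0.09 and 0.03, and all 4 overlapped with sham. Large sensory neuron genes had a median of 0.04 over 23 members and potassium channel genes 0.02 over 30, each with 0 at p under 0.05. Calcium channel genes had 0.06 over 14 members with 1 higher, Cacna1c (0.13, SE 0.052), and Cacna2d1, the subunit bound by gabapentin, had 0.20 with etanercept and 0.47 with vehicle. Opioid and other inhibitory receptor genes had a median of 0.06 over 29 members, with 2 higher and 1 lower at unadjusted p under 0.05. The lower one was the somatostatin receptor Sstr1 (-1.18, SE 0.37), and the higher ones were Sstr2, of the same family (1.34, SE 0.51), and the nociceptin receptor Oprl1 (0.27, SE 0.088). Both somatostatin receptors stood under 3 CPM in all libraries.

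Glia differed little, and by library. Satellite glia genes had a median of -0.01 over 21 members, with 10 above sham and 11 below. Without overlap 4 lay higher and 7 lower (17.2% and 18.5% of all genes). At unadjusted p under 0.05, 2 were higher and 1 lower (2.64% and 3.73% of all genes). The median was 0.098 without CPIP+ETA 1 and -0.14 without CPIP+ETA 2. Fabp7, a lipid carrier of these cells, stood at 17.1 and 17.7 CPM in sham and 25.4 and 22.7 CPM in CPIP+ETA (0.46, SE 0.11, edgeR adjusted p = 0.531). Schwann cell myelin genes had 16 of 20 members below sham and a median of -0.10, with 0 at p under 0.05. Their summed level was 13490 and 16253 CPM in sham, 10888 CPM in CPIP+ETA 1 and 15672 CPM in CPIP+ETA 2. Without CPIP+ETA 1, 18 of the 20 lay above sham with a median of 0.093, and without Sham+Veh 2 it was 14 with a median of 0.086, so the direction of this list turned with either library.

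Of the stress and metabolic lists, 22 hypoxia genes had a median of 0.04. At unadjusted p under 0.05, 5 of them were higher and 0 lower (2.64% and 3.73% of all genes). Of these, Hif3a, Ddit4 and the glycolytic enzyme Eno1 (0.22, SE 0.06) had the lowest p, and the first pair also belong to the glucocorticoid list. Oxidative stress genes had 2 higher of 24, haem oxygenase Hmox1 (0.57, SE 0.16, or 0.31 without CPIP+ETA 2) and the metallothionein Mt2A (1.0, SE 0.30, or 0.53 without CPIP+ETA 2). Heat shock genes had 1 higher and 1 lower of 25, and cholesterol synthesis genes 2 higher of 24, with medians of 0.04 and 0.07. Immediate early genes, which mark recent cell activity, had 17 of 24 above sham and a median of 0.17, but 7 above and a median of -0.09 without CPIP+ETA 2. Cell division genes had 12 of 30 above sham and a median of -0.05 (vehicle 0.25).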

How the data were processed

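Bulk RNA of dorsal root ganglia (L4 to L6) of rats was measured in 6 libraries, 2 per group, on the BGISEQ-500 from RNA with a RIN of at least 8.0, per the labels' protocols. The authors deposited expected counts per gene, estimated reads that need not be whole (32.7% of the values were). The genome build is Rnor_6.0 per the submitters' processing notes. Which aligner, counting program and annotation were used, and how strand and shared reads were handled, is not given in the sources used here. No coordinates of that build are given.

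Counts were rounded to whole numbers, and 2907 genes blank in all libraries were read as 0. The quasi-likelihood test of edgeR 4.0.16 (R 4.3.3) was fitted once to all 6 libraries with group as the only term, TMM scaling and filterByExpr (minimum count 10, minimum total 15), which left 15531 genes, 3 residual degrees of freedom, a prior of 3.64 and a biological coefficient of variation of 10.3%. Genes with a Benjamini-Hochberg adjusted p under 0.05 (two-sided) were called. SE is the log2 fold change over the square root of F. A group at 0 was set to a floor of 3 counts, over the whole group, and floors and intervals cover counting error only. Gene identifiers were matched to RefSeq of GRCr8 for names and promoters (20690 matched).

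The 35 lists (840 entries, 803 distinct genes, 709 tested), the comparison and the naming rule were chosen with earlier results of these data known. The rule named the 10 highest and 10 lowest called genes with non-overlapping libraries, 1 CPM or more and no provisional symbol, with places filled by the lowest p, then up to 5 called provisional genes, the 3 members with the lowest p of each list described and a set of injury, TNF, glucocorticoid, vessel, fat and antigen genes. All other genes named, and the leptomeninges list, were picked with their values known. A few genes that the rule or these choices named are not reported here.

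The alternatives tried were scaling by RLE, upper quartile or library total, no filter, 1 CPM in 2 libraries, the 4 libraries alone, the title number as a replicate block, DESeq2 1.42.0, limma-voom 3.58.1, an adjusted p under 0.1, a minimum log2 fold change of 1 in either direction, and each library left out, where the lone library left is taken to vary like the other groups. A crossed block and counts per list were added after seeing the data. The title numbers did not pair the samples (correlations of deviations -0.106 to 0.0503). Tested on simulated data for CPIP+ETA against Sham+Veh (15485 genes), the procedure recovered 46.3% of the genes with a 1.5-fold change, 84.8% of those with a 2-fold and 97.0% of those with a 4-fold change, and it also called 13 unchanged genes. Every gene was simulated with the same biological coefficient of variation of 10.3%, whereas genes in the real libraries differ in spread. The simulation therefore does not show what share of real changes would be called. Figures were drawn with matplotlib 3.10.9.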

Additional observations from a re-analysis of the deposited data

How the results depend on the processing

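The count of 3 called genes, all higher, was 3 under RLE, upper-quartile and library-total scaling, without a filter and with 1 CPM in 2 libraries. It was 1 with only the 4 libraries or limma-voom, and 45 (21 higher, 24 lower) with DESeq2. Leaving out 1 library gave 1 to 2. The title number as a replicate block left the count at 3, and a block with the CPIP+ETA numbers crossed gave 1. For these counts the cause was not tested, but the 4 libraries alone and each left-out library leave fewer samples.

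Single genes changed sign only with a library left out. The log2 fold change over sham then ranged from -0.32 to 1.77 for Actn3, -1.30 to 2.13 for Aqp4, -0.23 to 1.67 for Atf3, -0.32 to 0.22 for Gal (0.18 without CPIP+ETA 1), -0.068 to 0.11 for Gap43 (-0.015 without CPIP+ETA 2), -6.72 to 3.72 for Myh2 and -0.61 to 0.021 for Ugt8. Scalings moved no direction among the named genes. Genes with few counts in a group, such as Vip and Hif3a in sham and most mast cell genes, are limited by counts, and 2 libraries per group limit all values.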

Other observations

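Hedgehog pathway genes, chosen after Ptch1 was seen, lay below sham with etanercept. Ptch1 stood at 50.2 and 58.0 CPM in sham, 41.2 and 41.3 CPM with vehicle, and 26.9 and 34.4 CPM with etanercept after CPIP. The target Gli1 stood at 20.8 and 27.96 CPM, 24.2 and 20.2 CPM, and 12.997 and 17.5 CPM in the same order. Both genes thus had their lowest levels in the etanercept pair. The transducer Smo had a log2 fold change over sham of -0.30, Gli2 -0.58 and Gli3 -0.27, and Dhh, the ligand made by Schwann cells, -0.07. None of these passed in edgeR.

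Genes of vitamin A metabolism, also chosen after their values were seen, did not share a direction. Retsat had 0.67 and Dhrs3, which turns retinal back into retinol, 0.15, while the retinoic acid enzymes Aldh1a1, Aldh1a2 and Aldh1a3 had -0.62, -1.06 and -0.57, Cyp26b1 -0.91 and Rdh10 -0.03. The carrier Rbp4 stood at 26.8 and 12.97 CPM in sham and 7.51 and 14.6 CPM in CPIP+ETA, with overlap.

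A few genes were present in one group and at 0 in another. LOC100911034 had no count in sham but 63 and 132 counts in CPIP+Veh, with 56 and 33 under etanercept, at least 28.5-fold higher with the drug than sham. LOC103694169 had no count in sham, 3 and 0 with vehicle and 49 and 33 with etanercept, at least 26.3-fold higher. The interferon-induced Oas1g had no count in sham or in CPIP+Veh 2, but 136 counts in the other vehicle library and 50 and 55 with etanercept. LOC100361543 had 22 and 27 counts in sham, 22 and 0 with vehicle and none with etanercept. These 4 are all the genes at 0 in one of the compared groups and at 1 CPM or more in both libraries of the other.

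Within the etanercept pair some genes were far apart. Retnlg, a neutrophil gene, stood at 5.19 CPM in CPIP+ETA 1 and 0.163 CPM in CPIP+ETA 2, against 0.217 and 0.109 CPM in sham. The eosinophil attractant Ccl11 was high in CPIP+ETA 1 as well, while Nr4a3, an immediate early gene, stood at 1.16 and 3.49 CPM.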
